A study of Mus musculus with 8 samples.

Results

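The genes described here are those of the E proteins and of the Id proteins that inhibit them: Tcf3, Tcf4, Tcf12, Id1, Id2 and Id3. They were taken from the array by gene symbol, through the annotation of each probe set, and each was represented by 1 Affymetrix probe set. Their Entrez gene numbers are 21423 for Tcf3, 21413 for Tcf4, 21406 for Tcf12, 15901 for Id1, 15902 for Id2 and 15903 for Id3, which separates Tcf3 and Tcf4 from the Tcf7l genes that once shared those symbols. They were 6 of the 8252 genes that the annotation named. Their transcripts were measured on 8 oligonucleotide arrays of sorted mouse B cells, in 4 groups of 2 arrays. The study compared germinal centre B cells raised by a T cell-dependent antigen with those raised by a T cell-independent antigen.

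All mice were QMxB6 F1 animals, and age and sex were not given in the labels. QM mice carry a knocked-in, rearranged heavy chain gene, so that a large share of their B cells bind the hapten NP. The resting group was GL7- B220+ cells of unimmunised mice, from pools of 6 and 9 mice. The other 3 groups were GL7+ B220+ cells, GL7 being the surface epitope used to sort germinal centre B cells. The TD day 4 group came from mice that were primed with 50 µg of alum-precipitated chicken gamma-globulin with heat-killed B.pertussis and, after 5 weeks, given 50 µg of NP-CGG (NP coupled to that globulin) in soluble form. Its pools held 6 and 9 mice. The TD day 10 group received 50 µg of alum-precipitated NP-CGG with heat-killed B.pertussis and no earlier priming, and both of its pools held 6 mice. The TI day 4 group received 30 µg of NP-Ficoll, and its pools held 4 and 10 mice. Day 10 and day 4 of the T cell-dependent response therefore differ in priming and in the form of the antigen as well as in time, and the TD day 4 mice alone had met the carrier before.

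E proteins are helix-loop-helix transcription factors that pair with one another and bind a short DNA element called the E-box. Id proteins carry the pairing domain but lack the basic region that contacts DNA, so an E protein paired with an Id protein does not bind. In B lineage cells Tcf3 (also called E2A) is needed for commitment and for antibody gene rearrangement, Tcf4 is also called E2-2 and Tcf12 is also called HEB, and Id2 and Id3 set how much E protein activity a mature B cell has.

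Promoter sequence is shown for Id2 and Id3, the inhibitors measured above background, because E proteins act through E-boxes. Each run is the 250 bases before the transcript start, 5′ to 3′ on the gene's strand, from RefSeq on GRCm38.p6, and capitals mark an E-box (CANNTG, a pattern that is the same on both strands and that takes in the other motifs counted here). The Id2 window is chr12:25096093-25096342 on the minus strand and the Id3 window is chr4:136143572-136143821 on the plus strand.
Id2: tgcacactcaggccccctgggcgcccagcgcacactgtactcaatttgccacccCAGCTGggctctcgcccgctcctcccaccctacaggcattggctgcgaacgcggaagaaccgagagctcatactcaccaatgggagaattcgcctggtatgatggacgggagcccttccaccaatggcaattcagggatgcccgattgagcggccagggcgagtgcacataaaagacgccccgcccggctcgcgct
Id3: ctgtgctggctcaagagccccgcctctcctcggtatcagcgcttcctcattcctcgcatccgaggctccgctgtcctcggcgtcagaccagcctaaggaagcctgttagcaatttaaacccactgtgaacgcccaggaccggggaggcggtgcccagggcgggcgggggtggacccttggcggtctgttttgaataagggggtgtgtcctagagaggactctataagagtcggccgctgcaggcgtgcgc
The Id2 window held 1 E-box, CAGCTG, which began 196 bases before the start. The Id3 window held none. The Tcf3 window lay inside the annotated gene, before a start that was not its outermost, and held CACTTG, which began 54 bases before that start. Of 3 windows for Tcf12, each before a different start, 1 held CAGCTG, 240 bases before its start. Another held CAAGTG, 149 bases before its start, and 1 held none. These 6 windows, for 4 of the genes, compare with all 32851 RefSeq windows of this length, of which 66.2% held CANNTG, 13.0% held CAGCTG and 17.2% held CACCTG or CAGGTG. A match is a stretch of letters and not a binding site.

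The deposited values were whole-number intensities, of which 30.1% were at or below 0, and the middle of each array, with 2% trimmed from each end, averaged 199.9 to 200.4. Values under 81, the median of all values, were set to 81 before log2 was taken, and 81 is called the floor below. Log2 differences are on that scale. A probe set was tested if it lay above the floor on at least 2 arrays, and 7253 of 12488 did. Replicates were separate pools of mice, per the labels. The Gapdh 3′ to 5′ probe ratio, a measure of RNA integrity and labelling, ran from 0.836 to 1.68, and was highest on the second resting array (1.59) and the TI day 4 arrays (1.24 and 1.68). The B cell marker list was above the floor in all 7 of its measured genes on every array, while Cd3e, Cd8a, Cd5 and Icos, markers of T cells, were below 0 on all 8. Cd4 was above the floor on every array, at 292 to 710, and Cd28 at TI day 4, at 103 and 140. Cd3g was above it on the first resting array (109) and the second TI day 4 array (92). Il7r was above it on the first resting (112), second TD day 4 (100) and second TD day 10 (137) arrays. The T cell list summed to between 583 and 1043, and in sums of marker lists a value below 0 counts as 0. The germinal centre marker list summed to 2346 and 2037 on the resting arrays, 4799 to 5645 on the T cell-dependent arrays, and 3620 and 3583 at TI day 4. Of its 6 tested genes, 4 were called higher than resting at TD day 4, 6 at TD day 10 and 3 at TI day 4. The shares of all probe sets called higher were 5.83%, 6.45% and 5.42%. Gcsam, of that list, was 156 and 131 at TI day 4 against 154 and 101 in resting cells.

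None of the tested genes of the family passed the test in any of 7 comparisons. For 1 of the 5 tested genes, Tcf12, germinal centre and resting arrays did not overlap, against 24.9% of all probe sets. Tcf12 read lower on all 6 germinal centre arrays than on either resting array, and Id3 averaged lower in each germinal centre group. Tcf4 averaged higher, Tcf3 did not move beyond its spread, and Id2 was lowest in the TI day 4 group. Id1 was at background. The 5 other genes lay above the floor on all 8 arrays, so all 5 were tested and none passed the filter through 1 group.

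**Figure D1:**
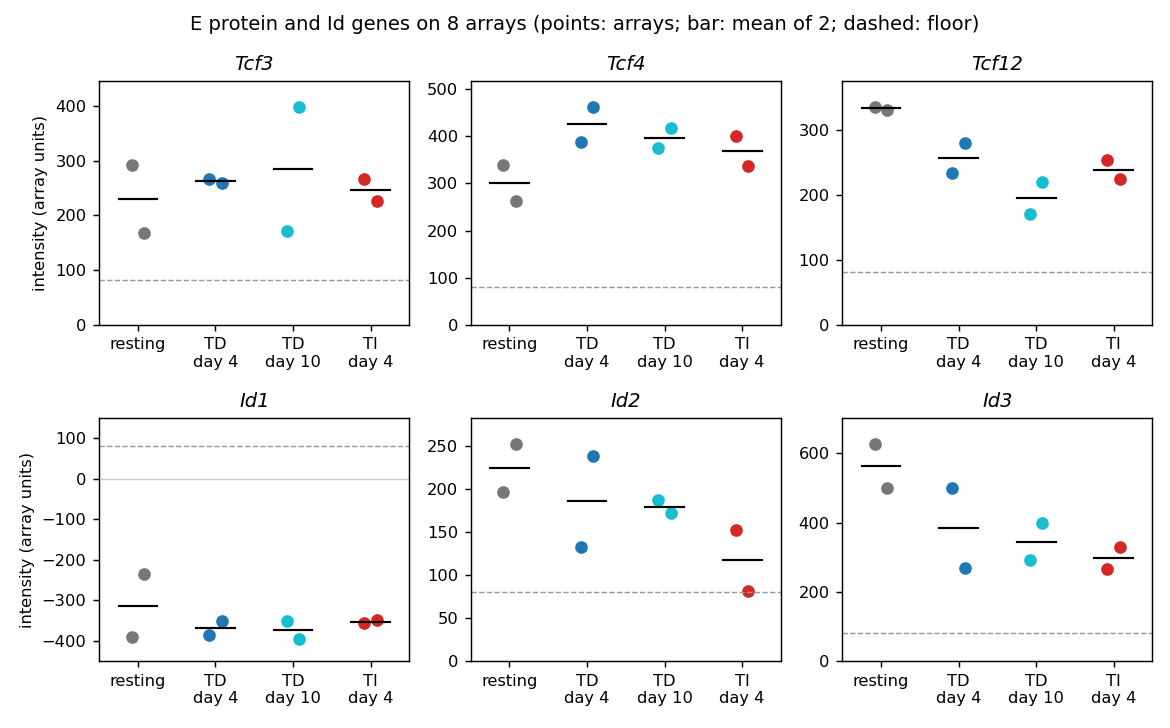
Deposited intensity (y axis, linear) of each of the 6 genes on the 8 arrays, grouped by resting, TD day 4, TD day 10 and TI day 4. Points are arrays, horizontal marks are group means and the dashed line is the floor of 81; Tcf12 lies at 335 and 331 in resting cells and between 170 and 280 in the germinal centre groups, and Id1 lies below 0 throughout.

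Tcf12 encodes HEB, an E protein that pairs with the products of Tcf3, best known from developing T cells. Its probe set carries the array maker's _s_at suffix, used where the probes match more than 1 transcript. The intensity of Tcf12 was 335 and 331 on the resting arrays, 234 and 280 at TD day 4, 170 and 220 at TD day 10, and 253 and 224 at TI day 4. The resting values stood above all 6 others, and the TD day 10 values were the lowest, below those of both other germinal centre groups.

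The mean of the germinal centre groups was 1.46-fold lower than resting for Tcf12, a log2 difference of -0.55 ± 0.16 (SE; adjusted p = 0.0787, limma with Benjamini-Hochberg adjustment). By group the log2 difference from resting was -0.38 ± 0.20 at TD day 4, -0.78 ± 0.20 at TD day 10 and -0.48 ± 0.20 at TI day 4, with adjusted p of 0.336, 0.0562 and 0.21 by limma. When the arrays were scaled to a common median, the difference was -0.60 for the germinal centre mean (adjusted p = 0.0458, limma) and -0.91 at TD day 10 (0.0277), and with quantile normalization it was -0.87 at TD day 10 (0.0379). No other gene of the family passed 0.05 under any of the 20 alternative settings. Between the germinal centre groups Tcf12 read 0.40 lower on the log2 scale at TD day 10 than at TD day 4, with a 95% interval of -0.88 to 0.07. Without the first TD day 10 array that difference was -0.22, and without the first TD day 4 array the TD day 4 difference from resting was -0.25.

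Tcf4 encodes E2-2, the E protein on which plasmacytoid dendritic cells depend and which B cells also carry. The intensity of Tcf4 was 340 and 262 on the resting arrays, 389 and 462 at TD day 4, 376 and 417 at TD day 10, and 400 and 336 at TI day 4. Both T cell-dependent groups lay above both resting arrays, while the second TI day 4 array lay just below the first resting one. The germinal centre mean was 1.32-fold above resting, a log2 difference of 0.40 ± 0.17 (SE; adjusted p = 0.198, limma), and the difference was 0.51 at TD day 4, 0.41 at TD day 10 and 0.30 at TI day 4. Without the second resting array these were 0.22 for the germinal centre mean, 0.32 at TD day 4, 0.22 at TD day 10 and 0.11 at TI day 4. The TI day 4 difference was also 0.49 without the first resting array and 0.17 without the first TI day 4 array. None of these passed, and the adjusted p of 0.219 at TD day 4 (limma) belonged to an unadjusted p of 0.0479.

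Tcf3 encodes the E2A proteins, which differ by splicing in their DNA-binding domain and which 1 probe set cannot separate. The intensity of Tcf3 was 292 and 168 on the resting arrays, 267 and 259 at TD day 4, 171 and 398 at TD day 10, and 266 and 227 at TI day 4. The groups overlapped throughout, and the 2 TD day 10 arrays spanned almost the whole range. The germinal centre mean differed from resting by 0.21 ± 0.36 on the log2 scale (SE; adjusted p = 0.771, limma). The 95% interval ran from 0.632-fold to 2.12-fold, so a change of 2-fold upward lay inside it.

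Id3 encodes the Id protein that antigen receptor signals regulate in lymphocytes. The intensity of Id3 was 627 and 499 on the resting arrays, 501 and 269 at TD day 4, 291 and 398 at TD day 10, and 267 and 330 at TI day 4. The resting values were above those of TD day 10 and TI day 4, and 1 of the TD day 4 arrays fell between them. The germinal centre mean was 1.68-fold lower, a log2 difference of -0.75 ± 0.28 (SE; adjusted p = 0.156, limma; unadjusted p = 0.0356). At TI day 4 the log2 difference from resting was -0.91 ± 0.34 (adjusted p = 0.177, limma), at TD day 10 -0.72 and at TD day 4 -0.61. The TD day 4 difference was -1.06 without the first TD day 4 array and -0.16 without the second.

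Id2 encodes the Id protein on which natural killer and other innate lymphoid cells depend. The intensity of Id2 was 197 and 253 on the resting arrays, 133 and 239 at TD day 4, 188 and 172 at TD day 10, and 153 and 82 at TI day 4. The second TI day 4 array lay 1 unit above the floor, both TI day 4 values were below both resting and both TD day 10 values, and TD day 4 spanned most of the range. At TI day 4 Id2 was 1.99-fold lower than resting, a log2 difference of -0.995 ± 0.39 (SE; adjusted p = 0.2, limma; unadjusted p = 0.043). Without the second TI day 4 array the difference was -0.545. The germinal centre mean differed from resting by -0.54 ± 0.32 (adjusted p = 0.367, limma).

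The natural killer and innate lymphoid marker list summed to 1466 and 1426 on the resting arrays and to between 910 and 1126 on the germinal centre arrays, with 4 or 5 of 7 genes above the floor on each array. The macrophage list summed to 5650 and 5103 in resting cells, 3455 to 4200 in the T cell-dependent groups, and 8117 and 6609 at TI day 4. Without Apoe, which was 4213 and 3371 at TI day 4 against 434 and 775 in resting cells, the macrophage sums were 5216 and 4328 in resting cells, 2465 to 3350 in the T cell-dependent groups, and 3904 and 3238 at TI day 4. The neutrophil list summed to 7294 and 7332 against 2480 to 3475, and the red cell list to 25570 and 23129 against 808 to 2884. Of the 5 tested red cell genes, 3 were called lower at TI day 4 than in resting cells, against 3.98% of all probe sets. Slc4a1 went the other way, at 1700 and 2317 against 724 and 707 (adjusted p = 0.00943, limma). The dendritic list ran from 2473 to 3559 and the endothelial and stromal list from 3269 to 4473. The plasmacytoid dendritic list, almost all of it Ly6d, summed to 10168 and 9210 against 1554 to 2303. Without Ly6d it summed to 374 and 351 against 222 to 337, and Ccr9 and Cox6a2 were under the floor on all 8 arrays. In the germinal centre mean Ly6d was the only 1 of the 3 tested genes of that list called, against 5.5% of all probe sets called lower. Which cells the Ly6d signal came from was not tested. The natural killer, neutrophil, red cell and plasmacytoid lists were lower on all 6 germinal centre arrays, as Tcf12 was. So was the B cell list, at 34792 and 30621 in resting cells against 23094 to 26966. In the germinal centre mean 3 of its 7 genes were called lower, against 5.5% of all probe sets, while Ms4a1 and Blnk averaged higher (log2 difference 0.11 and 0.25, not called). Without Cd79b the B cell sums overlapped, at 24235 and 21007 in resting cells against 18115 to 21129. Called lower in the germinal centre mean were 3 of 9 tested neutrophil genes and 1 of 5 natural killer genes, against the same 5.5%. Mpo, Csf3r and Cxcr2 of the neutrophil list averaged higher (log2 difference 0.32, 0.15 and 0.30, not called). So did Klrk1 of the natural killer list (0.33, not called). The part of other cell types in the differences of Tcf12, Id2 and Id3 was not tested. In bulk samples such as these, fewer cells of a type and less RNA per cell cannot be told apart.

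Id1 encodes the inhibitor that bone morphogenetic protein signals induce in many cell types. The intensity of Id1 was -390 and -236 on the resting arrays, -385 and -351 at TD day 4, -350 and -395 at TD day 10, and -356 and -348 at TI day 4. All 8 values were below 0 and none was above the floor, so no test or fold was made.

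Against resting cells, the germinal centre mean differed for 0 of 5 tested genes by limma at an adjusted p of 0.05, where 13.2% of all tested probe sets did; 2 of 5 had an unadjusted p under 0.05, against 25.8% of all. At TD day 4 the counts were 0 and 1 of 5, against 9.42% and 22.3%. At TD day 10 they were 0 and 1 of 5, against 10.9% and 23.5%. At TI day 4 they were 0 and 3 of 5, against 9.4% and 22.9%. The 3 at TI day 4 were Tcf12, Id2 and Id3.

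Groups that did not overlap were counted too. At TD day 10 against resting 4 of 5 genes had non-overlapping groups, against 49.7% of all probe sets. At TI day 4 the count was 3 of 5 against 48.4%, at TD day 4 it was 2 of 5 against 49.8%, and for all germinal centre arrays against resting it was 1 of 5, Tcf12, against 24.9%. The median log2 difference of the 5 genes was -0.54 for the germinal centre mean, where that of all probe sets was 0.00. These comparisons share the 2 resting arrays.

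**Figure D2:**
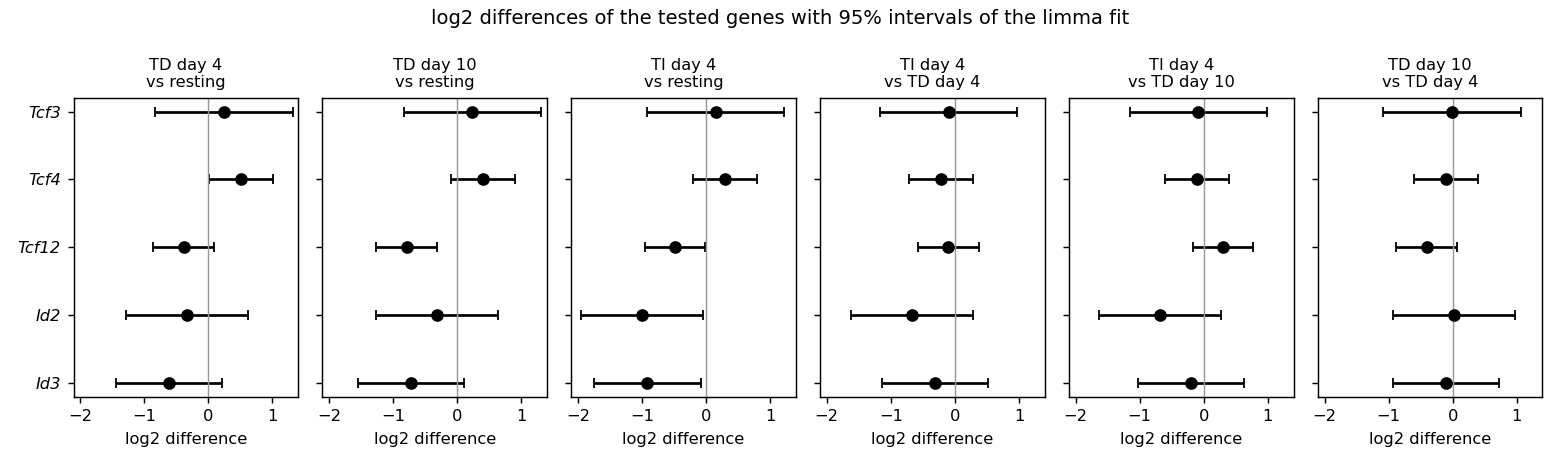
Log2 difference (x axis, log2 of floored intensity) of the 5 tested genes, 1 panel for each of 6 comparisons between groups, with bars for the 95% interval of the limma fit before adjustment for the number of tests. Against resting, Tcf12, Id2 and Id3 lie below 0 and Tcf3 and Tcf4 above 0 in all 3 panels, and no point passed an adjusted p of 0.05.

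The comparison the study was built for set the T cell-independent against the T cell-dependent germinal centre at day 4. All 5 genes averaged lower at TI day 4, and none passed (0 of 5 by limma, 0 of 5 at an unadjusted p under 0.05, against 1.45% and 14.4% of all probe sets). The groups overlapped for each of the 5. Id2 had the lowest p, with a log2 difference of -0.67 and a 95% interval of -1.62 to 0.28 (adjusted p = 0.556, limma). With 1 array left out it ran from -1.12 without the first TI day 4 array to -0.22 without the second, and it was -1.09 without the first TD day 4 array and -0.25 without the second. Of the 5 genes, 0 had non-overlapping groups, against 49.4%. For Tcf4 the difference was -0.21, from -0.34 to -0.08 with 1 of the 4 arrays compared left out, the interval was -0.71 to 0.29 and for Tcf12 it was -0.58 to 0.37.

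At TI day 4 against TD day 10, 0 of 5 passed by limma, against 2.4% of all, and 0 of 5 had an unadjusted p under 0.05, against 17.2%. The log2 difference of Id2 was -0.68 (95% interval -1.64 to 0.27) and that of Tcf12 was 0.30 (-0.18 to 0.77). The first was -1.13 without the first TI day 4 array and -0.23 without the second, and the other was 0.11 without the first TD day 10 array and 0.49 without the second. Groups did not overlap for these 2 of 5 genes, against 52.8% of all. TD day 10 against TD day 4 gave 0 of 5 by limma, 0 of 5 at an unadjusted p under 0.05 against 5.14%, and 0% of the whole array passed. Groups did not overlap for 1 of 5, Tcf12, against 40.1% of all.

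Within an array, the log2 difference between 2 genes shows unequal change, and scaling of the array cancels in it. For Tcf4 minus Tcf12 it was 0.02 and -0.34 on the resting arrays and 0.59 to 1.15 on the germinal centre arrays. For Tcf4 minus Id3 it was -0.88 and -0.93 against -0.37 to 0.78. Tcf4 minus Id2 was 0.79 and 0.05 against 0.95 to 2.04. Resting and germinal centre arrays did not overlap in these 3 pairs, nor in Tcf3 minus Id3 or Tcf3 minus Tcf12. They made up 5 of the 10 pairs, against 25.1% of all pairs of probe sets, and the pairs share genes, so they are not independent.

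**Figure D3:**
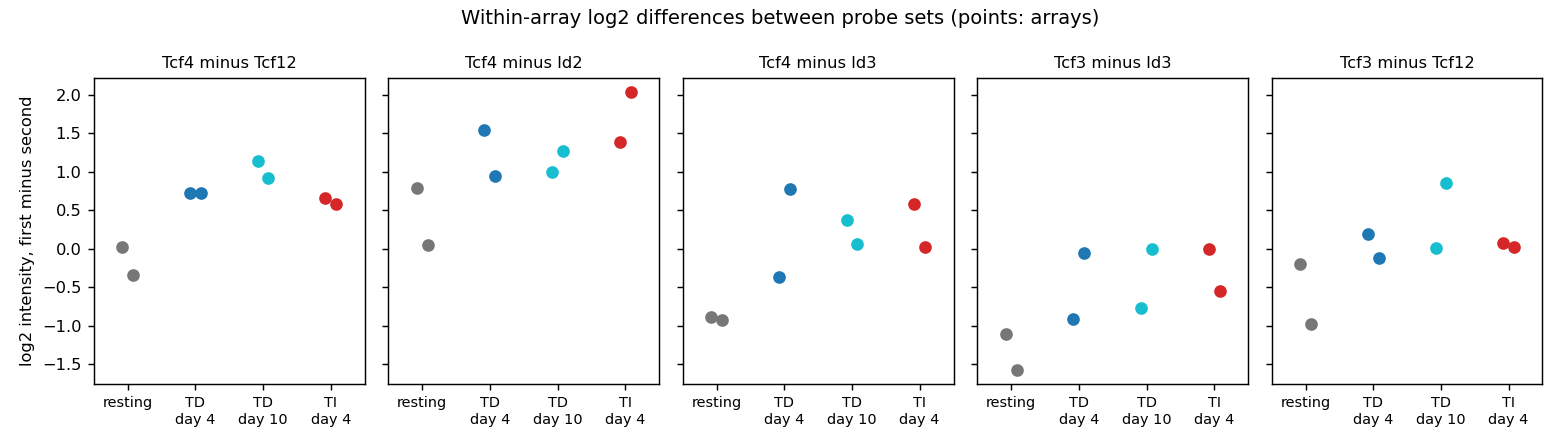
Within-array log2 difference between the intensities of 2 genes (y axis, log2) for the 5 pairs whose resting and germinal centre arrays did not overlap; points are arrays, grouped on the x axis. In each panel both resting arrays lie below all 6 germinal centre arrays, as for Tcf4 minus Tcf12 at 0.02 and -0.34 against 0.59 to 1.15.

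Across the 8 arrays, which share 4 groups, Pearson's r of log2 intensity was 0.58 between Tcf3 and Tcf4, 0.53 between Tcf12 and Id3, -0.54 between Tcf4 and Id3, and 0.44 between Tcf12 and Id2. Of 6402 probe sets of other genes, those most alike were Mapk14 (0.962), Zfp36l1 (0.957) and Rgs19 (0.953) for Tcf12, and Rab9 (0.959), Rap1a (0.945) and Mrpl13 (0.945) for Tcf4. For Id3 they were Mrpl23 (0.948), Tsc1 (0.924) and Aak1 (0.924). For Id2 they were Matr3 (0.964), Eif4a2 (0.948) and Hif3a (0.938), and for Tcf3 Ikbkb (0.973), Pdc (0.915) and Ndufb11 (0.91). These values are descriptions over 8 arrays.

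Genes of the wider pathway were counted in 4 lists, and several of these did pass. Of 13 tested cofactors and proteins that set E protein stability, 2 rose and 1 fell between resting cells and the germinal centre mean (23.1% called, against 13.2% of all, of which 7.73% rose and 5.5% fell). Of 10 tested upstream inputs 0 rose and 3 fell (30%). Of 25 tested proposed targets 2 rose and 5 fell (28%), and of 14 other helix-loop-helix genes 0 rose and 1 fell (7.14%).

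Hhex, a homeobox gene proposed as an E protein target, was 481 and 480 on the resting arrays and between 21 and 80 on the 6 germinal centre arrays. All 6 were at or under the floor, a fall of at least 5.93-fold (adjusted p = 0.00022, limma). Notch2, the receptor that directs marginal zone B cells, was 930 and 643 on the resting arrays, 11 and 146 at TD day 4, 68 and 98 at TD day 10, and 200 and 159 at TI day 4. It fell by at least 6.44-fold (adjusted p = 0.00265, limma), although another Notch2 probe set differed by -0.17 (adjusted p = 0.916, limma). Rbpj, the DNA-binding partner of Notch, was 214 and 181 on the resting arrays and 23 to 135 on the others, a fall of at least 1.97-fold (0.0104, limma). Those 3 calls for the germinal centre mean held under all 20 alternatives, as did Hhex in each group and Notch2 at TD day 10.

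Usp1, a deubiquitinase that stabilises Id proteins, was 183 and 104 on the resting arrays, 347 and 414 at TD day 4, 415 and 392 at TD day 10, and 328 and 199 at TI day 4. All 6 germinal centre arrays were above both resting arrays, and their mean was 2.46-fold higher (adjusted p = 0.0327, limma). The call was lost without any 1 of 6 arrays (second resting, both TD day 4, both TD day 10 and first TI day 4), with adjusted p of up to 0.149. Calm2, a calmodulin that can bind E proteins, was -137 and 9 on the resting arrays and 124 to 166 on the others, at least 1.76-fold higher (0.0203, limma). That call was lost without some single arrays. It was also lost with the floor at the 60th percentile, which is 143, and with array weights (adjusted p of up to 0.78, limma). Cbfa2t3, a corepressor, read 588 and 920 on the resting arrays, 314 to 421 on the T cell-dependent arrays, and 513 and 674 at TI day 4, and passed in no comparison.

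The next 4 proposed targets called in the germinal centre mean were picked after their values were seen. Pou2af1, a B cell coactivator that germinal centres need, was 1.81-fold higher (adjusted p = 0.0165, limma), and its other probe set differed by 1.38 in log2 (0.0103). Cd79a and Cd79b, the signalling chains of the B cell receptor, were 1.71-fold and 1.61-fold lower (0.0377 and 0.0184, limma). Cxcr5, the receptor that guides B cells to follicles, was 2.14-fold lower (0.0176, limma). All 4 calls were lost with array weights. The Cd79a call was also lost with quantile normalization, the floor at the 40th percentile, no filter and the replicate block. Quantile normalization also lost the Cd79b call, and no filter the Cxcr5 call. With 1 array left out, the adjusted p rose to at most 0.0671 for Pou2af1, 0.118 for Cd79a, 0.0517 for Cd79b and 0.0916 for Cxcr5.

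Tgfb1, which encodes a cytokine of the Smad pathway, was 320 and 415 on the resting arrays, at or under the floor on all 4 T cell-dependent arrays, and 119 and 245 at TI day 4 (at least 3.51-fold lower; adjusted p = 0.0103, limma, and 0.078 without the second resting array). Ptpn6, a phosphatase that dampens B cell receptor signals, was 1.71-fold lower in the germinal centre mean (adjusted p = 0.0165, limma), a call lost without the second resting array. By group it was 1.99-fold lower at TD day 4, 2.07-fold at TD day 10 and 1.2-fold at TI day 4 (0.0186, 0.0133 and 0.426, limma). Of 50 called differences of the list genes described here, 9 kept the call when each of the 8 arrays was left out in turn and 7 kept it under all 20 alternatives, by limma at an adjusted p of 0.05.

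The T cell-independent group stood apart for some of these genes. Nfatc1, a calcium-driven transcription factor, was 382 and 356 on the resting arrays, 393 and 403 at TD day 4, 220 and 266 at TD day 10, and 1097 and 842 at TI day 4. It was 2.61-fold above resting (adjusted p = 0.00991, limma, and 0.0459 at most with 1 array left out) and 2.41-fold above TD day 4 (0.0392, lost without any 1 of the 8 arrays). Xbp1, a driver of antibody secretion, was 3.84-fold above resting at TI day 4 (adjusted p = 0.0176, limma), a call lost without either resting, TD day 4 or TI day 4 array, with adjusted p of up to 0.108. Igll1, a surrogate light chain gene, was 708 and 768 on the resting arrays, 618 and 699 at TD day 4, 597 and 495 at TD day 10, and 1554 and 1888 at TI day 4. It was 2.61-fold above TD day 4 (adjusted p = 0.0318, limma, and up to 0.179 with 1 array left out). It is uncertain as a gene, since its sequence resembles lambda light chain constant regions and its other probe set differed by 0.08 between TI day 4 and resting. The Nfatc1 and Igll1 calls of TI day 4 against TD day 4 were lost with the Gapdh 3′ to 5′ ratio, which was high on the TI day 4 arrays, as a covariate (adjusted p = 0.151 and 0.168, limma). With that covariate 0 of all 7253 probe sets were called in this comparison, and the log2 differences of Nfatc1 and Igll1 were 1.41 and 1.27. Both calls were also lost with the replicate block (0.0934 and 0.076, limma). Against resting, the TI day 4 calls of Nfatc1, Igll1 and Xbp1 held with the covariate (0.0233, 0.0351 and 0.0481, limma). The plasma cell marker list holds Xbp1. Without Xbp1 it summed to 8217 and 10777 at TI day 4 and to 1499 to 3406 elsewhere, most of it Jchain, which was 7347 and 9356 at TI day 4. Without both genes the sums were 870 and 1421 at TI day 4 against 426 to 823, and Sdc1 and Prdm1 were not above the floor on enough arrays to be tested. Of 4 tested genes of the list, 3 were called higher at TI day 4 than in resting cells, against 5.42% of all probe sets. They were Xbp1, Jchain and Tnfrsf17, and Irf4 was not called. Tnfrsf17 read 563 and 805 at TI day 4 and 216 to 296 elsewhere (adjusted p = 0.0179 against resting, limma). The part of plasma cells in the Xbp1 and Igll1 differences was not tested.

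Mxd4, a helix-loop-helix antagonist of Myc, was 1251 and 1113 on the resting arrays, 770 and 481 at TD day 4, 278 and 312 at TD day 10, and 1228 and 1198 at TI day 4. TD day 10 was 4.01-fold below resting (adjusted p = 0.00615, limma, and 0.0529 without the first TD day 10 array), while the TI day 4 values lay within the resting range. Lmo2, an adaptor in E protein complexes, was 2.12-fold lower at TI day 4 (0.0135, limma, and 0.0638 without the second TI day 4 array), and its other probe set differed by -0.96 (0.0234). Arntl, Hif1a and Myc, the other helix-loop-helix genes named by the same rule, passed in no comparison. Ccnd3, a cell cycle cyclin proposed as an E protein target and picked here after its values were seen, was 3.9-fold higher in the germinal centre mean (adjusted p = 0.00957, limma, and 0.0751 without the second resting array).

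**Figure D4:**
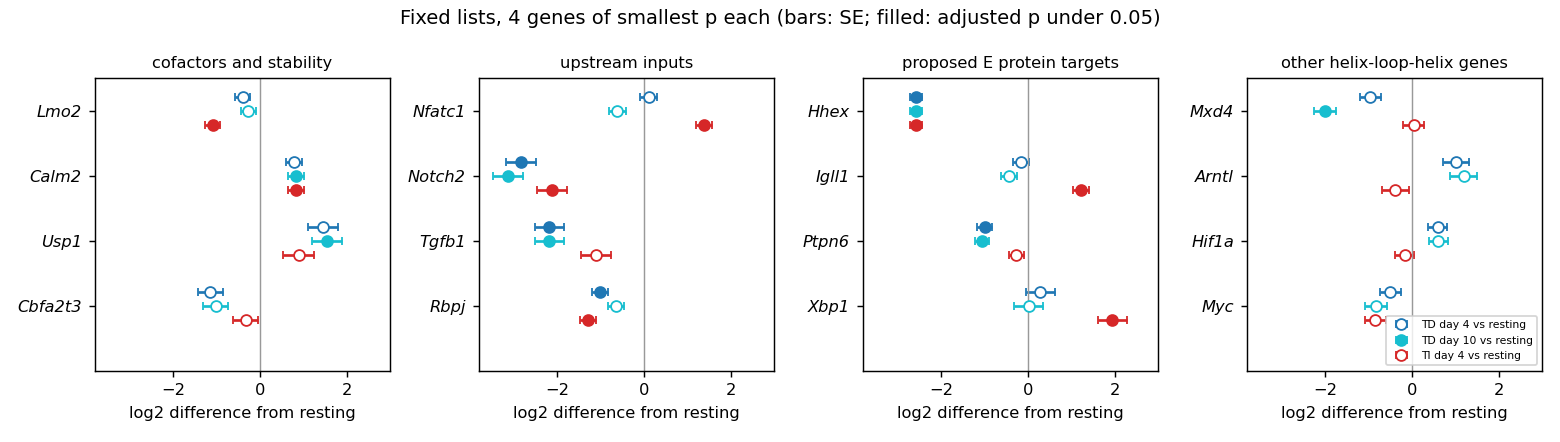
Log2 difference from resting (x axis) for the 4 genes of each pathway list with the smallest p over all 4 groups, by group, with bars for the standard error; filled points passed an adjusted p of 0.05. Hhex lies at -2.57 in all 3 groups, where its values were at or under the floor, and Nfatc1 and Xbp1 lie above 0 at TI day 4.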

How the data were processed

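RNA of sorted B cell pools was labelled and hybridised to Affymetrix arrays, per the labels' protocols. The deposited values are linear intensities, 1 per probe set, as whole numbers; what software and scaling the authors used is not stated in those labels. Of 12488 probe sets, 10855 named 1 gene, 396 several and 1237 none, and 66 controls were left out. Values were floored at 81, the 50th percentile of all values, log2 was taken, and probe sets above the floor on at least 2 of 8 arrays were fitted with limma 3.58.1 in R 4.3.3, with the 4 groups in 1 model (4 residual degrees of freedom) and Benjamini-Hochberg adjustment at 0.05 over all 7253 tested probe sets. The limited number of arrays sets the precision. In simulated data the fit missed most of the smaller changes put in and some of the larger ones, so a gene that did not pass may still differ. List genes were named by rule: up to 4 per list, those of smallest p over all 4 groups; a gene with several probe sets took the brightest. The 3 genes most alike each family gene had the highest Pearson correlation of log2 values over the 8 arrays. Other genes named were picked after their values were seen. The genes and lists were chosen with earlier results of these data known. The model had no replicate block; deviations of same-numbered arrays correlated between -0.217 and 0.121. Alternatives were 18 planned and 2 added after seeing the data (a pseudocount of 50 without a floor, and the Gapdh ratio as a covariate).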

Additional observations from a re-analysis of the deposited data

How the results depend on the processing

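The number of family genes passing an adjusted p of 0.05 in limma was 0 in each of the 7 comparisons, and it became 1, Tcf12, for the germinal centre mean with a common median, and 1, Tcf12, for TD day 10 against resting with a common median or quantile normalization. It stayed 0 with the replicate block (0 in each comparison) and under every other alternative. Common median scaling moved the split of all calls for TD day 10 against resting from 468 higher and 322 lower to 364 and 391, and for the germinal centre mean from 561 and 399 to 504 and 465, and for TI day 4 against TD day 10 from 87 and 87 to 118 and 78. Of 700 differences of family genes over the alternatives, 33 changed sign, passing in neither setting. With the arrays left out in turn, log2 differences ranged for Tcf3 from -0.19 to 0.61 (germinal centre mean), -0.37 to 0.85 (TD day 10), -0.15 to 0.65 (TD day 4) and -0.25 to 0.55 (TI day 4) against resting, from -0.62 to 0.60 (TD day 10 against TD day 4), -0.70 to 0.52 (TI day 4 against TD day 10) and -0.21 to 0.017 (TI day 4 against TD day 4). They ranged for Id2 from -0.41 to 0.44 (TD day 10 against TD day 4) and -0.75 to 0.10 (TD day 4 against resting), for Id3 from -0.56 to 0.34, -0.42 to 0.029 and -0.76 to 0.14 (TD day 10 against TD day 4, TI day 4 against TD day 10, TI day 4 against TD day 4), for Tcf4 from -0.22 to 0.026 and -0.24 to 0.015 (TD day 10 against TD day 4, TI day 4 against TD day 10) and for Tcf12 from -0.23 to 0.025 (TI day 4 against TD day 4). Other sign changes were for Tcf3 -0.07 (TD day 10 against resting, Gapdh covariate), 0.008 (TD day 10 against TD day 4, pseudocount), 0.053 and 0.43 (TI day 4 against TD day 10, common median and covariate) and 0.31 (TI day 4 against TD day 4, covariate), for Tcf4 0.028 and 0.22 (TI day 4 against TD day 10, common median and covariate) and 0.051 (TI day 4 against TD day 4, covariate), and for Id2 at TD day 10 against TD day 4 -0.07, -0.064, -0.04, -0.001 and -0.008 (quantile, common median, 60th percentile floor, pseudocount, covariate). The causes were not tested. List counts moved by over 1.5 times in 171 of 560 cases, and 322 of 1000 list gene calls were lost. Over all probe sets, calls over the alternatives ranged from 521 to 981 for the germinal centre mean (960 as reported), 192 to 726 for TD day 4 (683), 297 to 863 for TD day 10 (790) and 308 to 725 for TI day 4 (682) against resting, from 0 with the Gapdh covariate to 261 for TI day 4 against TD day 4 (105), from 4 without the first TD day 10 array to 292 for TI day 4 against TD day 10 (174), and from 0 to 14 for TD day 10 against TD day 4 (0).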
